A study of Mus musculus with 60 samples.

Results

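Cebpa, Cebpb, Cebpd and Cebpg, genes of the CCAAT/enhancer-binding protein (C/EBP) family, were followed in mouse hepatocytes expanded in culture with interleukin 6 (IL6) and in mouse livers regenerating after partial hepatectomy (PHX). The 4 members were taken by symbol. They were 4 of 19355 genes in the table of cultured cells and 4 of 17473 in the table of livers, and Cebpd was also 1 of the 480 genes used from a table of cultures at day 7. In both large tables each of the 4 reached 1 FPKM in no fewer than 3 samples, the filter that was set on low values.

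By the labels all 60 samples came from adult C57BL/6 mice of genotype WT, in groups of 3. The study describes its single-cell clones as grown from hepatocytes of Albumin-Cre mice with a tdTomato reporter, which the labels do not give. The 33 cell samples were freshly isolated Hepatocytes, the first culture IL6-iHPCs-D3 (P0) and IL6-iHPCs-D14 (P0), 4 passaged lines of IL6-iHPCs (mouse-1 at P10 and at P35, mouse-2 at P10, clone-1 at P20) and the IL6-iMHs made from each of these lines. IL6-iHPCs are progenitor-like cells that grow in hepatocyte culture medium (HCM, with EGF and HGF) to which IL6 was added, and IL6-iMHs are what these cells became after 7 days in a maturation medium with oncostatin M, another cytokine of the IL6 family. Dexamethasone, a glucocorticoid, was in both media, so every culture received it, at a higher concentration in the maturation medium. By the study's recipe the maturation medium held no IL6, EGF or HGF. Clone-1 descends from a single hepatocyte, and mouse-1 is 1 mouse at different passages. The 18 liver samples were Normal liver and livers taken 6 hours, 24 hours, 3 days, 7 days and 14 days after 2/3 PHX (PHX-6h, PHX-24h, PHX-D3, PHX-D7 and PHX-D14). The 9 samples at day 7 were Primary hepatocytes, HCM-Hepa-D7 (P0), which grew in HCM without IL6, and IL6-iHPCs-D7 (P0). By the study's account the samples of a culture group are technical repeats. The labels do not say whether the livers of a group were separate mice, so p-values measure only the spread between these samples. The SE and p-value of a mean of the lines also come from the spread within groups. They leave out the differences between lines, and such a mean counts mouse-1 at both of its passages.

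C/EBP proteins are basic leucine zipper transcription factors that bind DNA as pairs, with themselves or with one another. C/EBP alpha is the main member of the adult liver, where it drives genes of glucose, ammonia and lipid metabolism and holds hepatocytes out of the cell cycle. C/EBP beta and C/EBP delta are induced by IL6 and by glucocorticoids and drive acute phase genes, and C/EBP beta is needed for full regeneration of the liver. C/EBP gamma lacks a transactivation domain of its own and acts as a partner, in stress responses with ATF4.

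On the mm10 assembly (GRCm38.p6), Cebpa lies on chromosome 7 at 35119293 to 35121928, and Cebpg lies 62726 bp from it on the same chromosome, at 35046422 to 35056566 on the minus strand. Cebpb is a gene of 1 exon on chromosome 2 at 167688915 to 167690432. Cebpd, also of 1 exon, is on chromosome 16 at 15887286 to 15889545. The 250 bases before the start site are printed for the 3 members that RefSeq's promoter table holds, because these genes moved in different directions in the same samples. Capitals mark TGACG, a core of the cAMP response element, in Cebpb, and TTGCG, one arm of the C/EBP palindrome, and the TATA box TATAAA in Cebpa.

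Cebpa, chr7:35119043-35119292, plus strand: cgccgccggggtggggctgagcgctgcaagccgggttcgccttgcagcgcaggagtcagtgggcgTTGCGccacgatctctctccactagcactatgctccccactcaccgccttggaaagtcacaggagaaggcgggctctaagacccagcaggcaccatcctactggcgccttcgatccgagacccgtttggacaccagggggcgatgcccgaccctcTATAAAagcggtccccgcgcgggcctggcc
Cebpb, chr2:167688665-167688914, plus strand: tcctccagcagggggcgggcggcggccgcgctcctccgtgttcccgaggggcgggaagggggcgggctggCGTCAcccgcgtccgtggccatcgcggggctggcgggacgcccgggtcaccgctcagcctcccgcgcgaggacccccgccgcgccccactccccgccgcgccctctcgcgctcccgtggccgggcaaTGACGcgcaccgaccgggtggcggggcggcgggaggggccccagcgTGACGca
Cebpg, chr7:35056567-35056816, minus strand: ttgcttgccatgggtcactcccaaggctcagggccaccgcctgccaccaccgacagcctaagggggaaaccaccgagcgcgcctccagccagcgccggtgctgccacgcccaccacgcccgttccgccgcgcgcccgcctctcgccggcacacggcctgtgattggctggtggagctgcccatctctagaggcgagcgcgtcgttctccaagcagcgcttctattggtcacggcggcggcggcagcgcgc

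The Cebpb window held TGACG 3 times, at positions -180, -53 and -7 from the start site, the first of them on the other strand. Of the 32817 promoters in the table, 17.7% hold this motif on either strand. The Cebpa window held TTGCG at -185 (14.5% of promoters, either strand) and TATAAA at -30 (7.60%, same strand as the gene). TTCNNNGAA, the core of a STAT site (7.01% of promoters), and the full palindrome TTGCGCAA (0.165%), which contains TTGCG, were also searched on both strands and are not among the letters of these 3 windows. The GC content of the windows was 66.4% in Cebpa, 81.6% in Cebpb and 70.8% in Cebpg.

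Values are FPKM, reads per kilobase of transcript scaled to the mapped reads of the library. Levels of different genes are set side by side on this scale, which adjusts for length and depth only. Libraries held 49.3 to 88.8 M reads on genes in the cells and 52.0 to 79.2 M in the livers, and a member had at least 512 reads in every cell library and at least 253 in every liver library. FPKM is relative to the rest of the library, and the middle of all genes was not the same in each group. The median log2 change of all 12328 genes tested was 1.14 at D3, 1.00 at D14 and 0.93 in passaged IL6-iHPCs against Hepatocytes, 0.46 in IL6-iMHs against Hepatocytes and -0.40 in IL6-iMHs against IL6-iHPCs. In liver it was -0.28 at 6 hours and 0.13 at D7, and within 0.10 of 0 at the other times against Normal liver. With quantile normalization the split of called genes moved from 5931 higher and 1392 lower to 2797 and 2335 in passaged IL6-iHPCs, and from 531 and 1279 to 758 and 674 in liver at 6 hours. Changes are therefore also given relative to the median of all genes. A gene was called changed at an adjusted p under 0.05 in limma and at least 2-fold on the log2(FPKM + 1) scale. Folds and log2 changes of the main fit are on this scale, which understates the change of low genes.

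The groups were checked against cell type markers. Summed over 8 hepatocyte markers, Hepatocytes held 73834 to 79662 FPKM, IL6-iMHs 60445 to 81636 and IL6-iHPCs of all groups 991 to 10311. Of 5 biliary markers, Epcam was under 1 FPKM in all samples of every culture group. Krt7 was so at D3 and in IL6-iHPCs of mouse-1 (P10) and mouse-2, and Sox9 in IL6-iMHs of mouse-1 (P35). The sum was 3.84 to 3.94 FPKM in Hepatocytes, 355 to 10977 FPKM in IL6-iHPCs and 200 to 1408 FPKM in IL6-iMHs. The markers did not move together. In IL6-iHPCs of mouse-1 (P10), Sox9 and Spp1 held nearly all of a sum of 7409 to 8438 FPKM, with Krt19 at 6.07 to 9.94 FPKM. On maturation of that line Krt19 rose to 40.4 to 53.4 FPKM, while it fell in the other lines. Libraries of a group correlated with each other at 0.991 or more in the cells. In liver the lowest was PHX-D3 replicate 2, at 0.892. At PHX-D3 the changes of Cebpa and Cebpd and the balance of Cebpa and Cebpb are given with and without it.

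The make-up of the family differed between Hepatocytes and every culture. Shares are taken within a library, and a common scale factor of the library leaves them as they are. In Hepatocytes, Cebpa made up 82.1% to 86.6% of the summed FPKM of the 4 genes, Cebpb 10.4% to 14.7%, Cebpd 1.08% to 1.297% and Cebpg 1.53% to 2.04%. At D3 of culture with IL6, Cebpa was down to 16.7% to 18.9%, and Cebpb made up 54.9% to 61.4%. In the 12 samples of passaged IL6-iHPCs, Cebpa made up 9.68% to 21.6%, Cebpb 32.9% to 51.3% and Cebpd 28.3% to 41.5%, and in all 4 lines the group means of both Cebpb and Cebpd were above that of Cebpa. In mouse-2 the mean of Cebpg (11.2%) was above it as well (10.2%). In IL6-iMHs the share of Cebpa was 37.2% to 53.8% in mouse-1 (P10), 32.5% to 42.5% in mouse-2, 27.3% to 28.9% in mouse-1 (P35) and 15.6% on average in clone-1, from 15.0% upward. No IL6-iMH sample reached the share seen in Hepatocytes. The sum of the 4 genes was 303 to 365 FPKM in Hepatocytes, 97.8 to 108 FPKM in IL6-iHPCs of mouse-2 and 403 to 479 FPKM in IL6-iHPCs of clone-1.

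**Figure D1:**
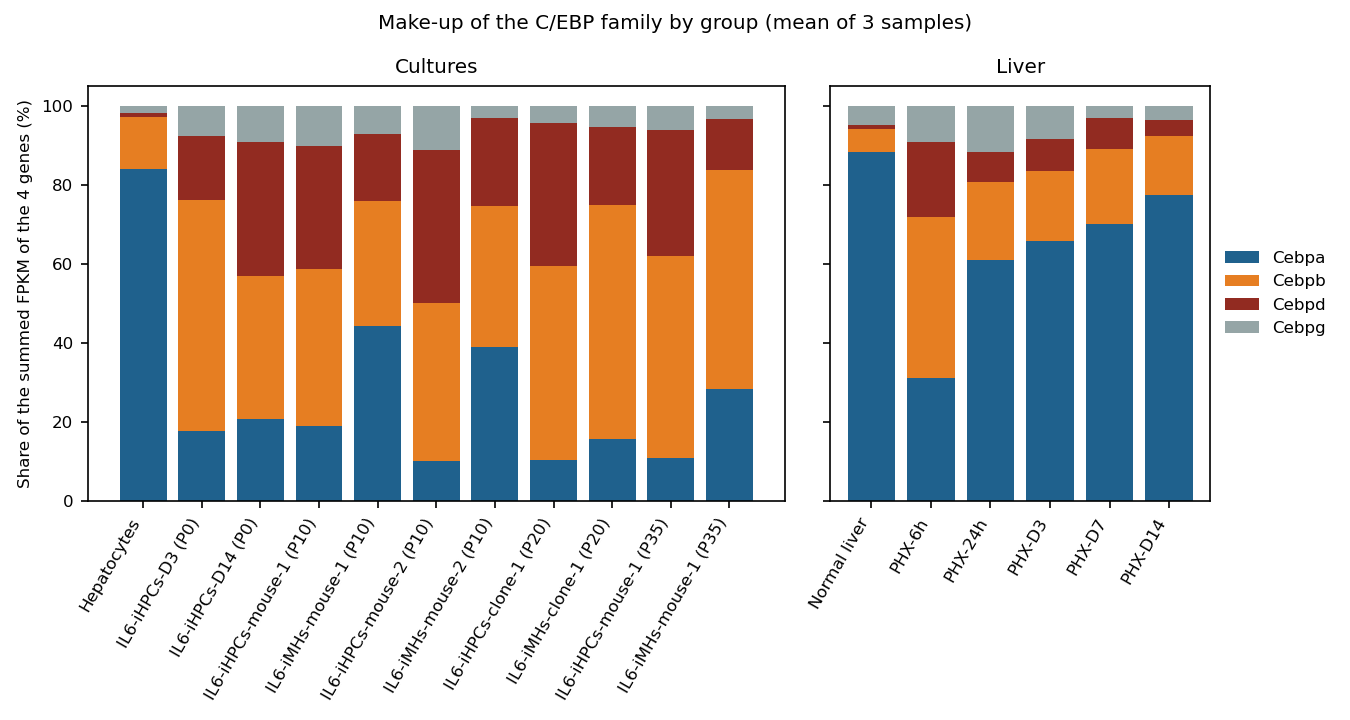
Mean share of Cebpa, Cebpb, Cebpd and Cebpg in their summed FPKM (y axis, percent) in each group of 3 samples, for the cultures (left) and the livers (right). Cebpa averages 84.0% in Hepatocytes and 88.3% in Normal liver, and falls to 17.6% at D3 of culture and 31.0% at 6 hours after PHX.

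Cebpa, the alpha gene, stood at 304, 248.99 and 268 FPKM in the 3 Hepatocytes samples. It was 46.1, 44.3 and 52.8 FPKM at D3, and 23.2, 23.3 and 19.0 FPKM at D14. Groups did not overlap, and each later group was lower. The fall was 5.63-fold at D3 (log2 change -2.49, SE 0.08, limma adjusted p = 4.3e-23), or -3.63 relative to the median of all genes. At D14 it was 12.1-fold (log2 change -3.59, SE 0.08, limma adjusted p = 6.1e-27), and D14 was 2.14-fold below D3 (limma adjusted p = 2.4e-13), a step of -0.93 with size factors, which is under 2-fold.

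In passaged IL6-iHPCs Cebpa was 17.6, 19.4 and 18.9 FPKM in mouse-1 (P10). It was 10.4, 10.4 and 10.95 FPKM in mouse-2, the lowest group of the table. It was 24.5, 25.4 and 25.7 FPKM in mouse-1 (P35) and 41.8, 46.8 and 46.9 FPKM in clone-1. The lines did not overlap, and all were below Hepatocytes. The mean of the 4 lines was 11.96-fold below Hepatocytes (log2 change -3.58, SE 0.06, limma adjusted p = 1.2e-29), and the fall ran from 5.94-fold in clone-1 to 23.6-fold in mouse-2. In the order of group means, the neighbours that overlapped were D3 with IL6-iMHs of clone-1, these with IL6-iHPCs of clone-1, and D14 with IL6-iHPCs of mouse-1 (P10).

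Cebpd, the delta gene, was the member with the largest rise in culture. It stood at 3.94, 3.76 and 4.02 FPKM in Hepatocytes. It was 48.1, 38.0 and 45.7 FPKM at D3 and 36.3, 33.4 and 35.7 FPKM at D14. Every culture sample of the table was above all 3 Hepatocytes samples, the lowest at 21.2 FPKM. The rise was 9.12-fold at D3 (log2 change 3.19, SE 0.09, limma adjusted p = 1.7e-23), or 2.05 relative to the median of all genes, and 7.37-fold at D14 (limma adjusted p = 2.3e-22).

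The passaged lines differed in Cebpd. It was 25.4, 35.05 and 32.9 FPKM in IL6-iHPCs of mouse-1 (P10), 40.7, 40.6 and 39.8 FPKM in mouse-2, 75.3, 74.9 and 70.1 FPKM in mouse-1 (P35), and 150, 153 and 168 FPKM in clone-1. Mouse-1 (P35) was above mouse-1 (P10) with no overlap, and clone-1 was above every other group of the table. The mean of the lines was 12.8-fold above Hepatocytes (log2 change 3.68, SE 0.07, limma adjusted p = 1.1e-27), 2.74 relative to the median of all genes, and the lines ran from 6.49-fold in mouse-1 (P10) to 32.2-fold in clone-1. Without clone-1 the log2 change of the mean was 3.23. Clone-1 and mouse-1 (P35), the lines with the highest Cebpd, also held the highest sums of 7 neutrophil markers, 28.0 to 36.5 and 86.4 to 92.3 FPKM, all but S100a8 and S100a9 being under 1 FPKM in each of their samples.

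In the cells Cebpb, the beta gene, varied between samples of some groups far more than the other members. In Hepatocytes it was 51.8, 44.5 and 32.1 FPKM, all above the 8.34 to 25.6 FPKM of Normal liver, a separate set of samples. At D3 it was 163, 129 and 188 FPKM, above Hepatocytes in every sample, and at D14 it was 43.1, 49.5 and 24.9 FPKM, overlapping them. The rise at D3 was 3.70-fold (log2 change 1.89, SE 0.32, limma adjusted p = 2.9e-06), or 0.75 relative to the median of all genes, and with size factors it was 0.78 on the log2 scale, under 2-fold. From D3 to D14 Cebpb fell 4.12-fold (log2 change -2.04, limma adjusted p = 2.0e-06). Against Hepatocytes, D14 had a log2 change of -0.16 (limma adjusted p = 0.64), and with size factors Cebpb was called lower there (-1.10, limma adjusted p = 0.0022).

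Among passaged IL6-iHPCs, Cebpb was 26.9, 61.2 and 34.96 FPKM in mouse-1 (P10) and 44.7, 35.3 and 44.97 FPKM in mouse-2, both overlapping Hepatocytes. It was 117, 120 and 114 FPKM in mouse-1 (P35) and 191, 207 and 246 FPKM in clone-1, both above every Hepatocytes sample. The calls followed this split. Cebpb rose 4.99-fold in clone-1 (limma adjusted p = 9.1e-08) and 2.74-fold in mouse-1 (P35) (limma adjusted p = 1.1e-04, log2 change 0.21 with size factors), while mouse-1 (P10) and mouse-2 had log2 changes of -0.12 and -0.02 (limma adjusted p = 0.73 and 0.95). The mean of the 4 lines had a log2 change of 0.91 (SE 0.25), under 2-fold, of 1.06 and called without Hepatocytes replicate 1, and of -0.05 with size factors.

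The spread of Cebpb within groups was measured against other genes. Its SD within groups was 0.44 on the log2 scale in the cell table, against a median of 0.10 for all genes tested and of 0.098 for the 576 genes within 0.5 log2 units of its mean level, at the 99.7th percentile of the latter. Cebpa, Cebpd and Cebpg had SDs of 0.093, 0.12 and 0.10. The spread of Cebpb differed by group, its SD in FPKM being 2.27% of the mean in IL6-iHPCs of mouse-1 (P35) and 53.6% in IL6-iMHs of mouse-1 (P10). In liver the SD of Cebpb was 0.42, against 0.47 for Cebpa, 0.48 for Cebpd and 0.16 for Cebpg. In IL6-iMHs of mouse-1 (P10), technical repeats by the study's account, Cebpb was 73.5, 56.0 and 20.7 FPKM while Cebpa was 65.3, 63.4 and 67.4 FPKM. A library had at least 1816 reads on Cebpb.

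Cebpg, the gamma gene, was lowest in Hepatocytes at 5.24 to 6.18 FPKM and highest at D3, at 18.6, 23.3 and 20.02 FPKM. It was 9.56 to 9.64 FPKM at D14, 8.12 to 11.8 FPKM in IL6-iHPCs of mouse-1 (P10), 11.4 to 11.9 in mouse-2, 14.0 to 14.5 in mouse-1 (P35) and 18.3 to 19.7 in clone-1. All these samples were above Hepatocytes in FPKM. The rise was 3.24-fold at D3 (log2 change 1.69, SE 0.08, limma adjusted p = 7.6e-18) and 2.14-fold in the mean of passaged lines (log2 change 1.10, limma adjusted p = 1.0e-15). Relative to the median of all genes these were 0.56 and 0.16, and with quantile normalization 0.47 and -0.01, so the call in both comparisons rests on the scaling. Without clone-1 the log2 change of the mean was 0.93, under 2-fold. From D3 to D14 it fell 2.03-fold (limma adjusted p = 1.1e-11), -0.86 with size factors and -0.93 without D3 replicate 2, both under 2-fold.

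Counted by comparison, 4 of 4 members changed at D3 against Hepatocytes, where 66.0% of 12328 genes did. At D14 2 of 4 changed (62.9% of genes), and from D3 to D14 3 of 4 fell (10.2% of genes changed, and 5.05% fell). In the mean of passaged IL6-iHPCs 3 of 4 changed (59.4% of genes). By line, 2 of 4 changed in mouse-1 (P10) (52.6%) and 2 of 4 in mouse-2 (55.9%). In mouse-1 (P35) 4 of 4 did (66.0%), as did 4 of 4 in clone-1 (61.9%). These counts rest in part on the scaling. With quantile normalization Cebpg was not called at D3 (0.47), in the mean of the lines (-0.01), in mouse-1 (P35) (-0.14) or in clone-1 (0.36), which leaves 3, 2, 3 and 3 of 4. With size factors the counts were 2 at D3, 3 at D14, 1 from D3 to D14, 2 in the mean of the lines and in mouse-1 (P35), and 3 for clone-1. Against Hepatocytes most genes changed, so these counts set nothing apart. The falls of Cebpa against Hepatocytes were at the 1.88th to 4.85th percentile of the log2 changes of all genes, and the rises of Cebpd were at the 89.5th to 98.6th.

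**Figure D2:**
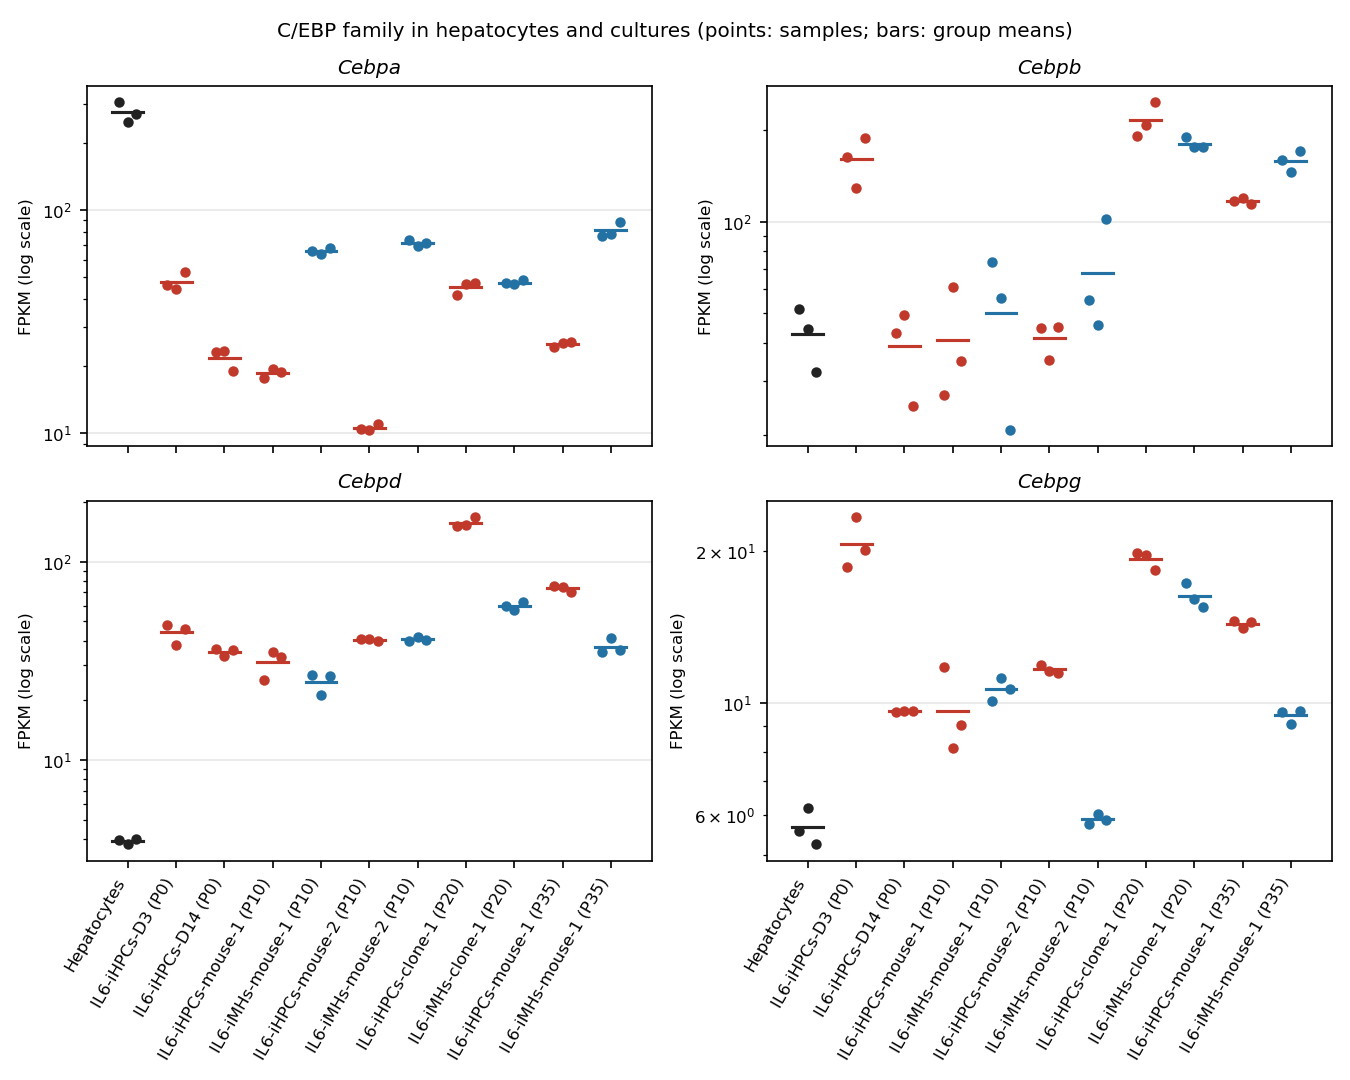
FPKM of each C/EBP gene (y axes, log scale) in the 11 groups of cultured cells, with a point for each of 3 samples and a bar at the group mean (black, Hepatocytes; red, IL6-iHPCs; blue, IL6-iMHs). Cebpa is highest in Hepatocytes, Cebpd is lowest there, and Cebpb spreads widely within some groups. The higher FPKM of Cebpg in cultures is not kept under quantile normalization in the mean of passaged lines (log2 change -0.01).

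The second comparison is that of IL6-iMHs with the IL6-iHPCs they were made from. Cebpa rose in 3 of 4 lines and did not pass the test in clone-1. It reached 65.3, 63.4 and 67.4 FPKM in IL6-iMHs of mouse-1 (P10), 73.3, 69.2 and 71.3 FPKM in mouse-2 and 76.5, 78.4 and 88.0 FPKM in mouse-1 (P35). In clone-1 it was 47.0, 46.4 and 48.4 FPKM, overlapping the IL6-iHPCs of that line. The rise was 3.38-fold in mouse-1 (P10), 6.25-fold in mouse-2 and 3.12-fold in mouse-1 (P35) (limma adjusted p = 2.5e-18, 1.0e-22 and 3.1e-18). In clone-1 the log2 change was 0.07 (SE 0.08, limma adjusted p = 0.43) and 0.52 with size factors. The mean of the lines rose 2.88-fold (log2 change 1.53, SE 0.04, limma adjusted p = 4.4e-25), 1.93 relative to the median of all genes, at the 96.6th percentile. This SE leaves out the differences between lines, whose log2 changes ran from 0.07 in clone-1 to 2.64 in mouse-2.

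Cebpd did not rise with Cebpa. It was 26.7, 21.2 and 26.6 FPKM in IL6-iMHs of mouse-1 (P10), 39.8, 41.7 and 40.3 FPKM in mouse-2, 34.9, 41.2 and 35.7 FPKM in mouse-1 (P35) and 59.4, 57.1 and 62.7 FPKM in clone-1. It fell 2.60-fold in clone-1 (log2 change -1.38, SE 0.09, limma adjusted p = 6.4e-14), -0.92 with size factors. In mouse-1 (P35) the log2 change was -0.96, just under 2-fold (-1.03 without its IL6-iMHs replicate 2, past it), in mouse-1 (P10) -0.31 and in mouse-2 0.01, or -0.12 with quantile normalization. Cebpb was 55.3, 45.9 and 102 FPKM in IL6-iMHs of mouse-2, 160, 145 and 171 FPKM in mouse-1 (P35) and 189, 175 and 176 FPKM in clone-1. No line passed the test for Cebpb, with log2 changes from -0.25 in clone-1 to 0.61 in mouse-2 and an SE of 0.32, the value of clone-1 being 0.22 with size factors. With size factors mouse-1 (P35) did pass, at 1.08 (limma adjusted p = 0.0029). Cebpg was 5.74 to 6.02 FPKM in IL6-iMHs of mouse-2, overlapping Hepatocytes, against 11.4 to 11.9 FPKM before maturation (log2 change -0.88, under 2-fold). In the other lines its log2 change was between -0.55 and 0.14, and the negative values of clone-1 and mouse-1 (P35) were positive with quantile normalization (0.22 and 0.12) and size factors (0.21 and 0.04).

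So 1 of 4 members changed in the mean of the lines (28.1% of genes). By line it was also 1 of 4, beside 25.0% of genes for mouse-1 (P10), 45.3% for mouse-1 (P35), 39.9% for mouse-2 and 23.6% for clone-1. That member was Cebpa in all but clone-1, where it was Cebpd. The difference between lines was itself tested, against mouse-1 (P10). The change of Cebpa was lower in clone-1 by a log2 difference of -1.69 (SE 0.11, limma adjusted p = 2.5e-14), -1.30 with quantile normalization and -1.35 with size factors, and that of Cebpd by -1.07 (SE 0.13, limma adjusted p = 2.7e-08), or -0.94 and under 2-fold without IL6-iHPCs replicate 1 of mouse-1 (P10). The Cebpd difference was also under 2-fold with quantile normalization (-0.81) and size factors (-0.72). These are 2 of 4 members called, beside 30.8% of genes. For mouse-2 the change of Cebpg was lower by -1.02 (limma adjusted p = 2.0e-08), the 1 of 4 members called beside 14.7% of genes, and the Cebpa difference was 0.88, or 1.02 and called with size factors. The Cebpg difference was under 2-fold with quantile normalization (-0.71) and size factors (-0.91), and, down to -0.92, without IL6-iMHs replicate 2, IL6-iHPCs replicate 2 or IL6-iHPCs replicate 3 of mouse-1 (P10). For mouse-1 (P35) 0 of 4 members were called, beside 33.7% of genes. Cebpd and Cebpg missed only the fold threshold there, at -0.65 and -0.70 (limma adjusted p = 5.8e-05 and 5.4e-06). With size factors their limma adjusted p were 0.46 and 0.099.

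**Figure D3:**
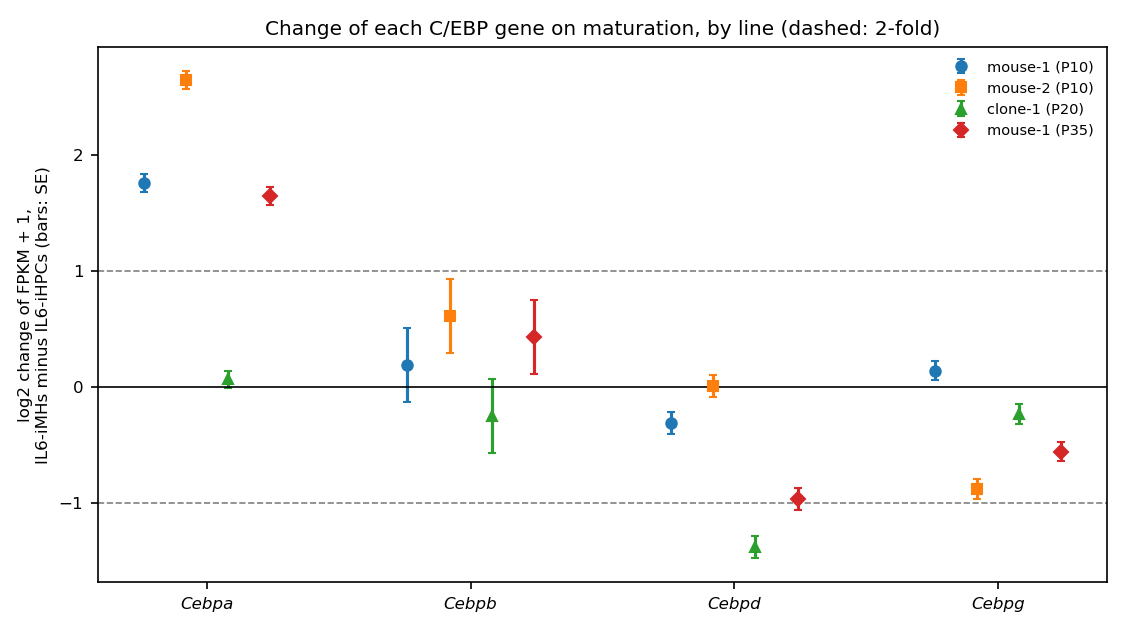
Log2 change of FPKM + 1 from IL6-iHPCs to IL6-iMHs (y axis) for each C/EBP gene in the 4 lines, with the SE from limma as bars and dashed lines at 2-fold. Cebpa is at 1.76 in mouse-1 (P10), 2.64 in mouse-2, 1.64 in mouse-1 (P35), the same mouse at a later passage, and 0.07 in clone-1. Cebpd is lowest in clone-1 at -1.38. The small changes of Cebpg in clone-1 and mouse-1 (P35), of Cebpb in clone-1 and of Cebpd in mouse-2 have the other sign with quantile normalization or size factors.

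Against Hepatocytes, IL6-iMHs kept a lower Cebpa and a higher Cebpd. In the mean of the lines Cebpa was 4.15-fold lower (log2 change -2.05, SE 0.06, limma adjusted p = 3.0e-23) and Cebpd 8.09-fold higher (log2 change 3.02, SE 0.07, limma adjusted p = 3.3e-25), or -2.52 and 2.55 relative to the median of all genes. Cebpb was 2.23-fold higher (log2 change 1.16, SE 0.25, limma adjusted p = 1.2e-04), 0.97 with quantile normalization, 0.56 with size factors, 0.85 without clone-1 and 0.97 without Hepatocytes replicate 3, all under 2-fold. Cebpg had a log2 change of 0.72. This is 3 of 4 members, beside 32.6% of genes, and 2 of 4 under either other scaling.

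The cultures at day 7 ask what IL6 adds at 1 time in the same medium. Cebpd is the only member in the rows used here, and how these rows were chosen is not given in the sources used here. The study used these groups to compare transcription factors, but the rows hold other kinds of genes as well, such as Rpl17 and Fgf21. It was 2.66 to 2.98 FPKM in Primary hepatocytes, 11.3, 8.62 and 9.05 FPKM in HCM-Hepa-D7 (P0) and 58.9, 74.5 and 63.2 FPKM in IL6-iHPCs-D7 (P0). The 3 groups did not overlap. With IL6, Cebpd was 6.25-fold higher than in HCM alone (log2 change 2.64, SE 0.10, limma adjusted p = 1.3e-09), where 5.43% of the 276 genes tested were called, and it had the highest change of all 276. This log2 difference was 2.63 to 2.64 under the other scalings. Against Primary hepatocytes the rise was 17.4-fold with IL6 (limma adjusted p = 1.2e-12, 53.3% of genes called) and 2.79-fold in HCM alone (limma adjusted p = 2.2e-08, 54.0% of genes called). The latter log2 change was 1.48, and 0.93 with size factors and 0.21 with quantile normalization.

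In regenerating liver the question is how the family moves in the living tissue. Fewer cells of a type and less RNA per cell cannot be told apart in whole tissue. Cebpa was 191, 252 and 208 FPKM in Normal liver and 62.0, 32.02 and 34.0 FPKM at 6 hours. It was 131, 99.6 and 80.8 FPKM at 24 hours, 118, 45.7 and 164 FPKM at D3, 182, 172 and 183 FPKM at D7 and 175, 219 and 181 FPKM at D14. All samples up to D3 were below Normal liver, D7 was below it with no overlap by a small margin, and D14 overlapped it. The fall at 6 hours was 5.18-fold (log2 change -2.37, SE 0.35, limma adjusted p = 6.6e-05), -2.09 relative to the median of all genes and at the 0.83rd percentile. At 24 hours Cebpa was 2.11-fold lower than in Normal liver (limma adjusted p = 0.029), a call lost without Normal liver replicate 2 or 3 or PHX-24h replicate 2 or 3 (log2 changes of -1.25 to -0.91 over the 6 libraries) or with quantile normalization (-0.97), and 2.46-fold higher than at 6 hours (limma adjusted p = 0.0099). At D3 it was 2.23-fold lower (log2 change -1.16, limma adjusted p = 0.023), and without its replicate 2 the log2 change was -0.63, under 2-fold. The call was also lost without Normal liver replicate 2 (-1.05) or 3 (-1.18), and with quantile normalization (-0.95). At D7 and D14 the log2 changes were -0.27 and -0.18 (limma adjusted p = 0.61 and 0.79).

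Cebpd moved the other way. It was 3.09, 2.01 and 2.30 FPKM in Normal liver and 22.5, 23.1 and 29.1 FPKM at 6 hours. It was 5.85, 19.3 and 12.9 FPKM at 24 hours and 6.34, 16.4 and 6.72 FPKM at D3, then 23.9, 18.4 and 18.7 FPKM at D7 and 8.64, 7.05 and 12.4 FPKM at D14. Every PHX sample was above Normal liver, with levels high at 6 hours, lower at D3 and high again at D7. The rise was 7.495-fold at 6 hours (log2 change 2.91, SE 0.36, limma adjusted p = 1.5e-05), 3.62-fold at 24 hours (limma adjusted p = 0.0013), 2.90-fold at D3 (limma adjusted p = 0.0059), 6.16-fold at D7 (limma adjusted p = 4.5e-05) and 2.95-fold at D14 (limma adjusted p = 0.0071). In these 5 comparisons Cebpd stood at the 98.7th to 99.4th percentile of all genes. At D3 its log2 change was 1.53, and 1.13 and still called without PHX-D3 replicate 2. From 6 to 24 hours it fell 2.07-fold (limma adjusted p = 0.031), a call lost when any of 5 of the 6 libraries was left out, all but PHX-24h replicate 2. Without PHX-24h replicate 1 the log2 change was -0.62.

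Cebpb followed Cebpd in shape. It was 8.34, 25.6 and 11.5 FPKM in Normal liver and 73.7, 41.7 and 50.9 FPKM at 6 hours. It was 22.5, 34.0 and 43.2 FPKM at 24 hours and 24.5, 26.3 and 24.2 FPKM at D3, both overlapping Normal liver replicate 2. It was 47.8, 51.6 and 46.0 FPKM at D7 and 30.9, 34.97 and 45.2 FPKM at D14, above all of Normal liver. The rise was 3.77-fold at 6 hours (log2 change 1.91, SE 0.31, limma adjusted p = 1.6e-04), 2.27-fold at 24 hours (limma adjusted p = 0.0097), 3.39-fold at D7 (limma adjusted p = 5.7e-04) and 2.58-fold at D14 (limma adjusted p = 0.0075). The call at 24 hours was lost without Normal liver replicate 1 (log2 change 0.92) or PHX-24h replicate 3 (0.86). At D3 the log2 change was 0.83 (limma adjusted p = 0.057), and it was 1.27 and called without Normal liver replicate 2.

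Cebpg did not share this pattern. It was 10.8 to 12.8 FPKM in Normal liver and 10.03 to 13.3 FPKM at 6 hours, which overlapped (log2 change 0.0017, SE 0.13, limma adjusted p = 0.99). At 24 hours it was 17.3, 21.9 and 19.8 FPKM, above every sample of the other times, with a log2 change of 0.71 (limma adjusted p = 0.0012) that is under 2-fold. Its group mean was lowest at D7, at 7.17 to 9.10 FPKM (log2 change -0.52).

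By time, 3 of 4 members changed at 6 hours, where 16.3% of 11114 genes did, and 3 of 4 at 24 hours (7.90%). At D3 2 of 4 changed (5.82%), at D7 2 of 4 (8.84%) and at D14 2 of 4 (2.98%). From 6 to 24 hours 2 of 4 changed (6.72%). From 24 hours to D3 0 of 4 were called (3.72% of genes). Cebpg had a limma adjusted p of 0.0035 there and missed only the fold threshold, with a log2 change of -0.64, under 2-fold. Without both PHX-24h replicate 1 and PHX-D3 replicate 2, Cebpd was called there (log2 change -1.16).

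**Figure D4:**
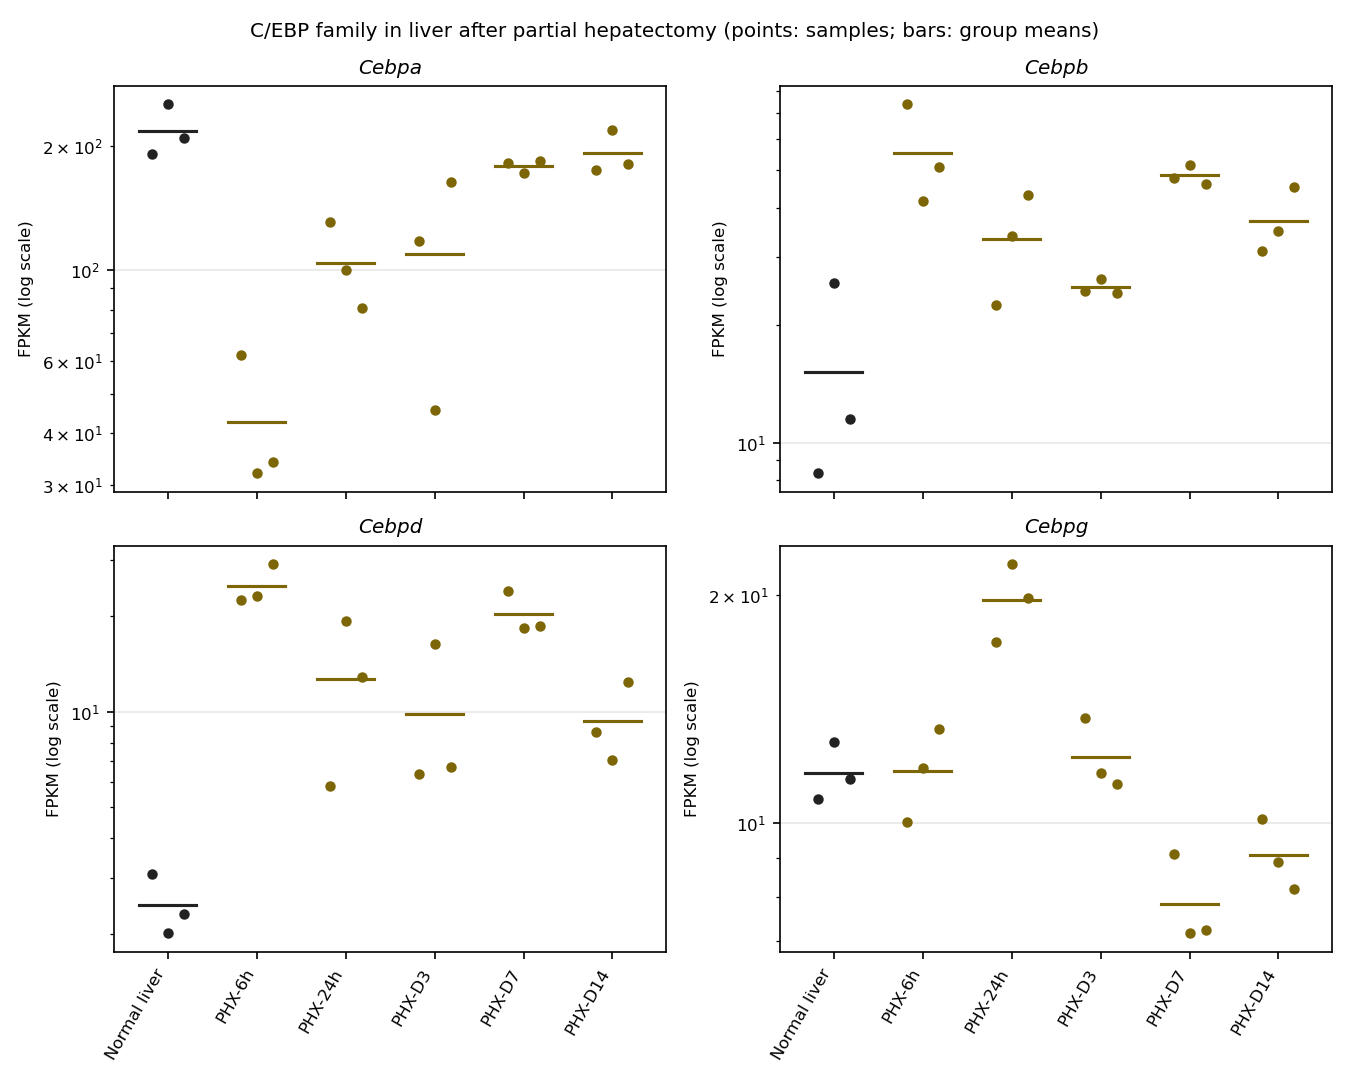
FPKM of each C/EBP gene (y axes, log scale) in Normal liver (black) and in livers after PHX, with a point for each of 3 samples and a bar at the group mean. Cebpa drops at 6 hours and is near Normal liver again by D7, while Cebpb and Cebpd are high at 6 hours and D7. The PHX-D3 sample with the lowest Cebpa (45.7 FPKM) has the highest Cebpd of its group (16.4 FPKM).

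Markers of myeloid cells, which also express C/EBP genes, moved with some of these times. The summed FPKM of 10 macrophage markers was 190.1 to 325 in Normal liver, 76.1 to 141 at 6 hours, 186 to 219 at 24 hours, 194 to 592 at D3, 1143 to 1673 at D7 and 121 to 174 at D14. At D7, where Cebpb and Cebpd were high again, these markers were above every other sample, and at 6 hours they were below every Normal liver sample. The sum of 7 neutrophil markers was 2.06 to 7.70 in Normal liver, 43.4 to 44.9 at 6 hours, 10.1 to 83.4 at 24 hours, 7.98 to 41.9 at D3, 63.8 to 127 at D7 and 23.1 to 26.8 at D14. S100a8 and S100a9 held most of it. Both were also above 1 FPKM in every IL6-iHPC sample of clone-1 and mouse-1 (P35), so this sum does not stand for neutrophils alone. Ly6g, Elane and Mpo were under 1 FPKM in every liver sample, and Csf3r and Retnlg were so in all Normal liver samples but not in all samples at 6 hours, D3, D7 and D14. The sample with the highest Cebpd of its group also had the highest neutrophil sum at 24 hours, D3 and D7, but not in Normal liver, at 6 hours or at D14. In Normal liver the sample with the highest Cebpd (3.09 FPKM) had the lowest sum (2.06 FPKM). The summed FPKM of 8 hepatocyte markers also moved with time, from 52662 to 57192 in Normal liver to 41937 to 49331 at 6 hours, 30108 to 34983 at 24 hours, 35734 to 67762 at D3, 38864 to 45188 at D7 and 50100 to 59669 at D14. The lowest sum at D3 was that of replicate 2, the sample with the lowest Cebpa there. The part of these cells in the levels of the C/EBP genes was not tested.

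**Figure D5:**
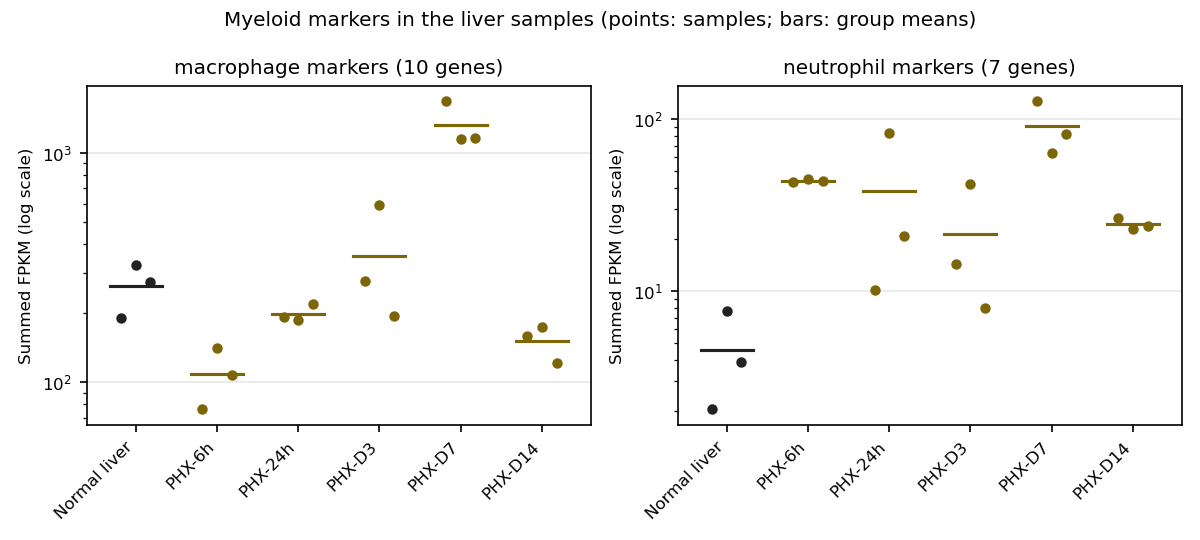
Summed FPKM (y axes, log scale) of 10 macrophage markers (left) and 7 neutrophil markers (right) in the liver samples, with a point for each sample and a bar at the group mean. The macrophage sum is 1143 to 1673 FPKM at D7 against 190.1 to 325 FPKM in Normal liver, and the neutrophil sum is above Normal liver at each time after PHX.

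The balance of Cebpa and Cebpb was taken as the log2 ratio of their FPKM + 1 within each library. In Hepatocytes it was 2.53, 2.46 and 3.02. It was -1.80, -1.52 and -1.82 at D3 and -0.87, -1.06 and -0.37 at D14, with Cebpb above Cebpa in every sample. In Normal liver it was 4.36, 3.25 and 4.07, and at 6 hours after PHX it was -0.25, -0.37 and -0.57, the only time at which Cebpb was above Cebpa. It was 0.89 to 2.48 at 24 hours, 0.77 to 2.71 at D3, 1.72 to 1.97 at D7 and 1.98 to 2.61 at D14. The difference from the control group was -4.38 at D3 of culture, -3.44 at D14 of culture, -4.29 at 6 hours, -2.26 at 24 hours, -1.99 at D3, -2.03 at D7 and -1.54 at D14 after PHX. In each of these 7 comparisons the groups did not overlap, and the exact two-sided permutation test gave p = 0.10 (0.10 after adjustment over the 7), the smallest that 3 samples against 3 allow. Without PHX-D3 replicate 2 the difference at D3 after PHX was -1.43. In passaged IL6-iHPCs the ratio was -2.37 to -0.58. In IL6-iMHs it was -0.17 to 1.65 in mouse-1 (P10), -0.51 to 0.58 in mouse-2, -1.05 to -0.88 in mouse-1 (P35) and -1.98 to -1.84 in clone-1.

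The relatives Cebpe, Cebpz and Ddit3 were measured beside the members. Cebpe, known from the maturation of granulocytes, was 7.08 to 8.87 FPKM in Hepatocytes and at most 0.396 FPKM in any culture sample. On the FPKM + 1 scale it fell 7.64-fold at D3 (log2 change -2.93, SE 0.06, limma adjusted p = 1.9e-27), to 0.081 to 0.227 FPKM. On maturation its log2 change was 0.16, under 2-fold. In liver Cebpe was 5.65 to 8.35 FPKM in Normal liver and 0.583 to 0.783 FPKM at 6 hours (log2 change -2.18, SE 0.35, limma adjusted p = 1.2e-04), and 8.44 to 9.95 FPKM at D7. Cebpz, which shares the name but is no leucine zipper factor, was 2.34 to 3.84 FPKM in Hepatocytes and 30.5 to 32.5 FPKM at D3 (log2 change 3.00, SE 0.10, limma adjusted p = 1.5e-22). Ddit3, or CHOP, a stress-induced member that blocks other C/EBP proteins, rose from 3.42 to 3.87 FPKM in Hepatocytes to between 33.9 and 35.7 FPKM at D14 (log2 change 2.94, SE 0.09, limma adjusted p = 3.7e-23). In liver PHX-D3 replicate 2 stood apart in Ddit3 at 31.9 FPKM, the other 17 samples being at 3.55 to 10.6 FPKM.

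The genes around the family were taken as lists and are given as counts, beside the shares of all genes that rose and that fell and the median of all genes. Of 14 measured regulators of C/EBP, 9 rose and 0 fell in passaged IL6-iHPCs against Hepatocytes (48.1% and 11.3% of all genes, median log2 change 1.59 against 0.93). The largest rises were those of Trib3 and Trib2, pseudokinases of the Tribbles family, some of which send C/EBP alpha to degradation. Trib3 had a median of 28.0 FPKM against 1.67 (log2 change 3.36, SE 0.06, limma adjusted p = 7.3e-30), and Trib2 5.68 FPKM against 0.083 (log2 change 2.67, limma adjusted p = 8.7e-27). On maturation 0 of 14 rose and 3 fell (6.68% and 21.4% of all genes, median -0.78 against -0.40), the largest falls being those of Socs3, the feedback inhibitor of IL6 signaling (73.9 to 14.3 FPKM, log2 change -2.61, limma adjusted p = 2.0e-32), and Creb1, a factor of cAMP signaling (log2 change -1.55). At 6 hours after PHX 5 of 14 rose and 0 fell (4.78% and 11.5% of all genes, median 0.46 against -0.28), led by Socs3 (4.26 to 41.5 FPKM, log2 change 2.98, limma adjusted p = 0.0015) and Stat3, the factor that IL6 activates (25.9 to 74.4 FPKM, log2 change 1.64, limma adjusted p = 4.3e-06).

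Of 13 bZIP partners, 4 rose and 3 fell in passaged IL6-iHPCs (48.1% and 11.3% of all genes, median log2 change 0.21 against 0.93). Fosl2 and Atf2 had the largest rises (log2 changes 3.36 and 2.82), and Jun and Fos, the classic AP-1 pair, the largest falls (-2.98 and -2.87). Jun fell from a median of 113 FPKM to 14.0 FPKM (limma adjusted p = 3.5e-25). Fos was 53.9 to 67.4 FPKM in Hepatocytes and 1.41 to 46.7 FPKM in these lines, against 0.693 to 1.19 FPKM in Normal liver. Its fall is thus from a reference far above Normal liver, and why Hepatocytes stood so high was not tested. On maturation 3 rose and 2 fell (6.68% and 21.4% of all genes, median -0.17 against -0.40). Dbp, a factor of the circadian clock, went from 5.10 to 21.8 FPKM (log2 change 1.72, limma adjusted p = 2.1e-21) and Jun from 14.0 to 39.4 FPKM (log2 change 1.36), while Atf2 and Fosl2 fell (log2 changes -1.73 and -1.42). At 6 hours 6 rose and 4 fell (4.78% and 11.5% of all genes, median 0.88 against -0.28), with Atf3 and Fos the largest rises (log2 changes 2.41 and 2.14, limma adjusted p = 0.0062 and 0.025) and Dbp and Atf5 the largest falls (-4.32 and -1.55).

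Of 12 metabolic targets of C/EBP, 0 rose and 11 fell in passaged IL6-iHPCs (48.1% and 11.3% of all genes, median log2 change -4.75 against 0.93), where Cebpa was low. Pck1, the first enzyme of gluconeogenesis, fell from a median of 644 FPKM to 0.017 FPKM (log2 change -9.25, SE 0.07, limma adjusted p = 4.6e-38). Cps1, the first enzyme of the urea cycle, fell from 669 to 0.92 FPKM (log2 change -8.67). On maturation 10 of 12 rose and 0 fell (6.68% and 21.4% of all genes, median 3.45 against -0.40). Cps1 went up to 413 FPKM (log2 change 8.01, limma adjusted p = 3.2e-35), and Tat, which breaks down tyrosine, went from a median listed at 0 to 97.3 FPKM. At 6 hours after PHX, where Cebpa fell as well, 3 of these targets rose, 1 fell and 8 did not pass (4.78% and 11.5% of all genes, median 0.05 against -0.28). The rises were led by Apoa4, an apolipoprotein (92.5 to 703 FPKM, log2 change 2.93, limma adjusted p = 0.037), and Hamp, the iron hormone hepcidin (372 to 1785 FPKM, log2 change 2.79, limma adjusted p = 0.0068), and the 1 that fell was G6pc, of glucose release (120.0 to 59.5 FPKM, log2 change -1.66, limma adjusted p = 0.022).

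Of 12 acute phase targets, 4 rose, 3 fell and 5 did not pass in passaged IL6-iHPCs (48.1% and 11.3% of all genes, median log2 change 0.32 against 0.93). Lcn2, a siderophore-binding protein, had the largest rise, from 2.97 to 4338 FPKM (log2 change 9.80, SE 0.08, limma adjusted p = 1.5e-37), and Saa3 rose from 8.54 to 304 FPKM with a range over the 12 samples of 12.8 to 3822 FPKM. Crp and Hpx, a pentraxin and the heme-binding hemopexin, had the largest falls (log2 changes -2.93 and -2.69). On maturation 3 rose and 2 fell (6.68% and 21.4% of all genes, median 0.13 against -0.40), the rises led by Crp and Hpx (log2 changes 3.46 and 1.80) and the falls by Saa3 and Saa2 (-2.40 and -1.18). At 6 hours 9 of 12 rose and 0 fell (4.78% and 11.5% of all genes, median 2.12 against -0.28), with Lcn2 from 4.64 to 3150 FPKM (log2 change 9.01, limma adjusted p = 5.6e-07) and Saa2 from 28.4 to 8155 FPKM (log2 change 7.78).

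Of 8 cell cycle proteins that C/EBP alpha binds, or their partners, 8 rose and 0 fell in passaged IL6-iHPCs (48.1% and 11.3% of all genes, median log2 change 2.11 against 0.93). Cdkn1a, the inhibitor p21, rose from a median of 4.31 to 83.4 FPKM (log2 change 4.12, limma adjusted p = 8.9e-32), and Tfdp1, the dimer partner of E2F, from 5.95 to 49.9 FPKM (log2 change 2.77). On maturation 0 rose and 4 fell (6.68% and 21.4% of all genes, median -0.99 against -0.40), led by Tfdp1 and Rbl1 (log2 changes -1.52 and -1.52). At 6 hours Cdkn1a was the 1 of 8 that rose (1.64 to 176 FPKM, log2 change 6.12, limma adjusted p = 6.9e-06), and 0 fell (4.78% and 11.5% of all genes, median -0.32 against -0.28).

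The genes with the most similar pattern were named by Pearson's r over the 11 group means of the cells and the 6 of the liver, given as a description. Points share libraries, and 6 means leave many genes with a high r. For Cebpa the highest r in the cells were those of Mief2 (0.97), Adck5 (0.96), Pex6 (0.96), Ethe1 (0.96) and Cyp27a1 (0.95), among 11775 genes whose means spanned 2-fold. In liver they were Mib2, Hsd3b7, Vps9d1, Hdac11 and Pbld1 (0.99 to 1.00, among 4930 genes). Cyp27a1 and Hsd3b7 are enzymes of bile acid synthesis, and Pex6 serves the making of peroxisomes.

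For Cebpd in the cells they were Stxbp2 (0.99), Arpc1b (0.97), Rps6ka1 (0.96), Tmem185b (0.96) and Kctd10 (0.96). In liver they were Ctgf (0.98), Cebpb (0.97), Plaur (0.97), Gadd45b (0.97) and S100a8 (0.95), the last a marker of neutrophils. For Cebpb they were Anxa6, Mogat2, Sh3bp5l, AK010878 and Klhl25 in the cells (0.91 to 0.94) and Rasd1, Gadd45g, Cebpd, Ctgf and Itprip in liver (0.96 to 0.98). For Cebpg they were Napepld, Sft2d2, Zbtb7a, Il33 and Pik3cb in the cells (0.93 to 0.95) and Gtf2h1, Fbxo30, Otud6b, Dnajc3 and Retsat in liver (0.98 to 0.99). Between members, r of Cebpb and Cebpd was 0.63 over the group means of the cells and 0.97 in liver, and r of Cebpa and Cebpd was -0.56 and -0.62.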

How the data were processed

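The authors deposited FPKM values for each gene symbol and sample, and the labels' processing notes name TopHat 1.4.1, Cufflinks 1.3.0 and mm10. The unit was taken as FPKM from these tools and the values. Tables were not combined in any fit. Whole reads were recovered from the steps of the values (within 0.02 of a whole number), a read being the smallest unit counted, for depth and for 1 alternative. Of the table of day 7, 480 complete rows were used, and its depth is unknown.

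Genes reaching 1 FPKM in 3 or more samples were tested with limma 3.58.1 (R 4.3.3) on log2(FPKM + 1), which understates the change of low genes, with a trend in the variance, all groups of a table in 1 fit and Benjamini-Hochberg adjustment over all genes. The fit was tested on simulated data. Replicates of every pair differed by more than sampling noise (a chi-square per gene of at least 6.19). Members and lists were chosen with earlier results of these data known. Named are the members, their relatives, the 2 largest rises and 2 largest falls of each list and the 5 genes most like each member. Alternatives were another pseudocount (0.1), filters, scalings, a replicate block, fold thresholds, only the groups compared, voom on recovered reads and each sample left out. Leaving out clone-1, and leaving out a pair of livers, was added after the values were seen. Python 3.11.15 with numpy 2.4.6, pandas 2.3.3, scipy 1.17.1 and matplotlib 3.10.9 was used.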

Additional observations from a re-analysis of the deposited data

Results flagged for a closer look

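The lines differed in how the C/EBP genes moved from IL6-iHPCs to IL6-iMHs, by a test of the difference itself against mouse-1 (P10) (limma, adjusted over all genes). In clone-1 the log2 change of Cebpa was lower by -1.69 (adjusted p = 2.5e-14), of Cebpd by -1.07 (adjusted p = 2.7e-08) and of Cebpg by -0.37 (adjusted p = 0.0060). In mouse-2 that of Cebpa was higher by 0.88 (adjusted p = 4.2e-08), of Cebpd higher by 0.32 (adjusted p = 0.038) and of Cebpg lower by -1.02 (adjusted p = 2.0e-08). In mouse-1 (P35) that of Cebpd was lower by -0.65 (adjusted p = 5.8e-05) and of Cebpg by -0.70 (adjusted p = 5.4e-06). Some of these passed only under some scalings. With quantile normalization the Cebpg difference of clone-1 was -0.19 (adjusted p = 0.13) and the Cebpd difference of mouse-2 was 0.20 (adjusted p = 0.25). With size factors the Cebpg difference of clone-1 was -0.038 (adjusted p = 0.77), and in mouse-1 (P35) the Cebpd difference was -0.12 (adjusted p = 0.46) and the Cebpg difference -0.20 (adjusted p = 0.099). The Cebpd difference of mouse-2 also had an adjusted p of 0.058 with no filter and 0.087 with only the compared groups fitted. Line, passage and origin from 1 cell cannot be told apart for clone-1, which is 1 line at P20.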

How the results depend on the processing

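Scaling bore most on the results. With quantile normalization these log2 changes had the other sign: Cebpg at D14 (-0.54), in passaged IL6-iHPCs (-0.0087; mouse-1 (P10) -0.24, mouse-2 -0.015, mouse-1 (P35) -0.14), on maturation (0.11; clone-1 0.22, mouse-1 (P35) 0.12) and in IL6-iMHs against Hepatocytes (mouse-2 -0.31, mouse-1 (P35) -0.016), Cebpb in IL6-iHPCs of mouse-2 (0.019) and IL6-iMHs of mouse-1 (P10) against Hepatocytes (-0.010), Cebpd on maturation of mouse-2 (-0.12), Cebpa in the difference of mouse-1 (P35) from mouse-1 (P10) (0.28) and from PHX-24h to D3 (0.013). With size factors these did: Cebpg at D14 (-0.17), on maturation of clone-1 (0.21) and mouse-1 (P35) (0.045) and in IL6-iMHs of mouse-2 against Hepatocytes (-0.41), Cebpb in passaged IL6-iHPCs (-0.054), on maturation of clone-1 (0.22) and in IL6-iMHs of mouse-1 (P10) against Hepatocytes (-0.51), and Cebpa in the mouse-1 (P35) difference (0.40). The causes were not tested.

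Counts of members called that moved by over 1.5 times became 0 for the mouse-2 difference, 1 for the clone-1 difference and 1 at PHX-D3 with quantile normalization. With size factors they became 2 at D3, 1 from D3 to D14, 2 in IL6-iHPCs of mouse-1 (P35), 0 on maturation of clone-1, 2 on maturation of mouse-1 (P35), Cebpb being added (1.08), and 1 for the clone-1 difference. Smaller moves were to 3 at D3, in IL6-iHPCs of clone-1 and mouse-1 (P35) and in IL6-iMHs of clone-1 against Hepatocytes and to 2 in passaged IL6-iHPCs, in IL6-iMHs against Hepatocytes and at PHX-24h with quantile normalization, and with size factors to 3 at D14 and in both clone-1 comparisons with Hepatocytes and to 2 in passaged IL6-iHPCs and IL6-iMHs against Hepatocytes. With no fold threshold they were 3 on maturation (2 in mouse-1 (P10), mouse-2 and clone-1, 3 in mouse-1 (P35)), 3 and 2 for the mouse-2 and mouse-1 (P35) differences and 1 from PHX-24h to D3. At 1.5-fold they were 2 on maturation, in mouse-2, in mouse-1 (P35) and for both these differences, and 1 from PHX-24h to D3. The shares of all genes called under these settings are not given here. With a lower or no fold threshold more of all genes pass as well, so these counts set nothing apart. From PHX-6h to 24h the count was 1 with no filter, and with only the compared groups fitted it was 1 there and at PHX-D3. With PHX-24h replicate 1 and PHX-D3 replicate 2 both left out, chosen after the values were seen, it was 1 at PHX-D3, from 6h to 24h and from 24h to D3, and Cebpa from 24h to D3 was 0.62. Cebpd in HCM alone against Primary hepatocytes was 0.21 with quantile normalization and 0.93 with size factors.

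Leaving out each library in turn, the ranges were 1 to 2 members for the clone-1 difference, maturation of mouse-1 (P35), PHX-D3 and PHX-6h to 24h, 0 to 1 for the mouse-2 difference and 1 to 3 at PHX-24h. The log2 changes that took both signs were Cebpb at D14 (-0.35 to 0.13), in IL6-iHPCs of mouse-1 (P10) (-0.44 to 0.14) and mouse-2 (-0.21 to 0.13), in IL6-iMHs of mouse-1 (P10) against Hepatocytes (-0.29 to 0.60) and IL6-iHPCs (-0.17 to 0.72), and in the mouse-1 (P35) and mouse-2 differences (-0.28 to 0.60, -0.11 to 0.78), Cebpg in IL6-iMHs of mouse-2 against Hepatocytes (-0.00067 to 0.10), at PHX-6h (-0.086 to 0.10) and PHX-D3 (-0.020 to 0.12), Cebpd on maturation of mouse-2 (-0.0099 to 0.022) and from PHX-24h to D3 (-0.76 to 0.029), and Cebpa from PHX-24h to D3 (-0.47 to 0.44). All 7 ratios of Cebpa to Cebpb kept their direction with a pseudocount of 0.1 and with each library left out. Same-numbered samples of different groups did not deviate together on the median (median r -0.016 in the cells, -0.055 in liver, -0.096 at day 7). Of these pairs, 33 of 165 in the cells, 7 of 45 in liver and 3 of 9 at day 7 had an r above 0.1. With the replicate number as a block 1 of 4 members changed on maturation and 3 of 4 at PHX-6h, as without it.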
